A study of Homo sapiens with 12 samples.

Results

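Loss of 10 genes that build the heparan sulfate chain was followed in a pooled CRISPR/Cas9 knockout screen of HER2-amplified gastric cancer cells. The genes were UGDH, SLC35B2, XYLT2, FAM20B, B4GALT7, B3GALT6, B3GAT3, EXTL3, EXT1 and EXT2, and their sgRNAs were the entries of the count table that carry one of these names. They held 60 of the 123411 sgRNA entries, 6 for each gene, and 10 of the 20915 gene names. The genes were chosen by pathway, but also selected on readouts of this screen, and which contrast led to EXTL3 and B3GALT6 is not recorded. The values of the 10 genes are therefore a description throughout, and no call among them is independent evidence.

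Heparan sulfate is a long sulfated sugar chain carried by proteoglycans at the cell surface and in the extracellular matrix, where it binds growth factors and acts as a co-receptor for several of them. Each chain starts on a serine of the core protein with a linker of xylose, galactose, galactose and glucuronic acid, which chondroitin sulfate shares. EXTL3 then adds the sugar that commits the linker to heparan sulfate, and the EXT1 and EXT2 proteins polymerise the chain together.

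The cells were N87 and OE19, established lines with HER2 amplification. All cells carried lentiCRISPR v2, which delivers Cas9 and an sgRNA together, from the GeCKO v2 library, whose sublibraries A and B each hold 3 of the 6 sgRNAs of these genes. Cells were infected at a multiplicity of about 0.3, selected with puromycin for 7 days (1.5 µg/mL for OE19, 0.75 µg/mL for N87), and harvested as the baseline pool or grown for 14 more days. Vehicle cells received DMSO for those 14 days, and lapatinib cells received the EGFR and HER2 kinase inhibitor lapatinib, at 1 µM for OE19 and 0.5 µM for N87. Each of the 6 conditions had 2 libraries, made of genomic DNA from separate infections of 1 line, so they speak for these lines and doses. A rise of an sgRNA means that cells carrying it took a larger share of the pool.

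The 12 libraries held between 13105805 and 33743599 counts, with the lowest total in OE19 lapatinib replicate 1. The 10 genes took between 0.0419% and 0.0710% of a library. All 60 sgRNAs passed the low-count filter of every comparison, and the only count of 0 among them was UGDH sgRNA 5 in N87 lapatinib replicate 2. The sgRNAs of a gene are numbered here from 1 to 6, with 1 to 3 from sublibrary A. Levels are normalized counts, that is counts divided by a size factor of the library (median of ratios). log2 fold changes, their standard errors (SE) and adjusted p-values come from edgeR's quasi-likelihood test over all sgRNAs, and an sgRNA was called at an adjusted p under 0.05. A gene test by robust rank aggregation asked whether the sgRNAs of a gene ranked high or low among all sgRNAs.

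Drug-free growth was examined with vehicle against baseline. None of the 60 sgRNAs was called in either line, whereas among all sgRNAs 0.0114% were called higher and 0.893% lower in OE19, and 0 higher and 0.0399% lower in N87. At an unadjusted p under 0.05, edgeR gave 9 of the 60 sgRNAs in OE19 (15.0%, against 12.8% of all sgRNAs) and 2 in N87 (3.33%, against 7.65%). DESeq2 after adjustment called 0 of the 60 in both lines. The median log2 fold change over the 60 sgRNAs was 0.09 in OE19 and 0.05 in N87, against 0.01 and 0.02 over all sgRNAs and 0.19 and 0.09 over the 2000 control guide entries that target no gene. The 10 gene medians ran from -0.17 to 0.37 in OE19 and from -0.05 to 0.20 in N87. No gene of the 10 passed the gene test here, where 0 genes were called higher and 1.53% lower in OE19, and 0.0574% higher and 2.34% lower in N87. The lowest adjusted p of the gene test was 0.790 in OE19 (B4GALT7) and 1 in N87. With 1 library left out, edgeR called 4 of the 60 sgRNAs higher and 2 lower without OE19 vehicle replicate 1, where 2.40% of all sgRNAs were called higher and 5.15% lower. Without OE19 vehicle replicate 2 it called 13 higher and 3 lower, with 12.9% and 14.4% of all sgRNAs. In N87 it called 2 higher without vehicle replicate 1 and 1 higher without vehicle replicate 2, with 2.10% and 0.425% of all sgRNAs higher. Calls over the whole library thus multiplied in the same fits.

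**Figure D1:**
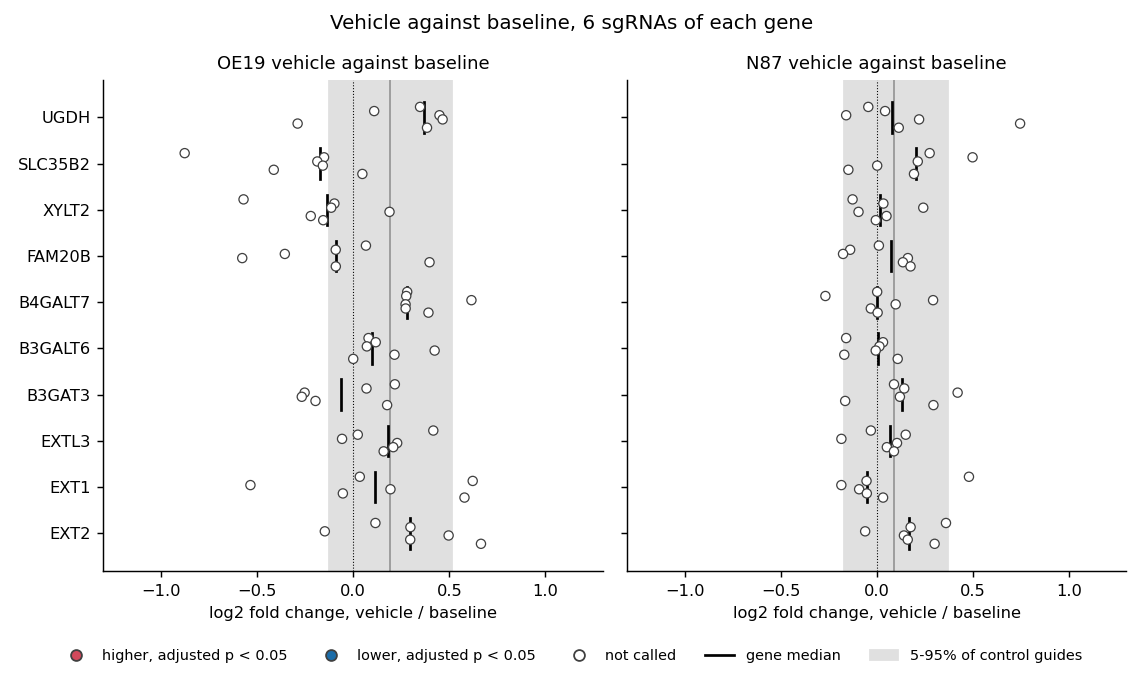
log2 fold change of vehicle against baseline for the 6 sgRNAs of each of the 10 genes (points, offset from sgRNA 1 at the top to sgRNA 6), in OE19 (left) and N87 (right). Black bars are gene medians, the grey band spans the central 90% of the control guides with their median as a grey line, and open points were not called. All 60 points are open in both lines, and they spread more widely in OE19 (SD 0.32) than in N87 (SD 0.19).

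UGDH, which makes UDP-glucuronic acid for the linker and the chain, had the highest median of the 10 genes in OE19 vehicle against baseline. Its 6 sgRNAs summed to 1071 and 1145 normalized counts in OE19 vehicle cells, against 837 and 910 in OE19 baseline cells, and the libraries did not overlap. The median log2 fold change was 0.37 (SD 0.29 over 6 sgRNAs), 5 of the 6 sgRNAs were positive, and 99.4% of all genes had a lower median. The control guides had a median of 0.19 there, with a grey band from -0.13 to 0.51. No UGDH sgRNA lay above that band, the highest being at 0.47, and sgRNA 5 (-0.29) lay below it. The gene test gave an adjusted p of 0.979. In N87 the sums were 933 and 1086 in vehicle cells and 940 and 936 in baseline cells, which overlapped.

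B4GALT7, which adds the first galactose of the linker, was the member with all 6 sgRNAs positive in OE19. Its sums were 1598 and 1623 normalized counts in OE19 vehicle cells and 1298 and 1238 in OE19 baseline cells, with no overlap and a ratio of means of 1.27. The median log2 fold change was 0.28, with sgRNAs between 0.27 and 0.62. Positive values were common without a target, with 1698 of the 2000 control guides above 0 in this OE19 comparison. Their median was 0.19 and their grey band ran from -0.13 to 0.51. Of the B4GALT7 sgRNAs, only sgRNA 3 (0.62) lay above that band. In N87 the B4GALT7 median was 0.00, and the sums were 1325 and 1453 in vehicle cells against 1324 and 1416 in baseline cells. SLC35B2, which carries the sulfate donor PAPS into the Golgi apparatus, stood at the other end in OE19 with a median of -0.17 and 5 of 6 sgRNAs negative, while its N87 median was 0.20. None of these differences between the lines was called, and the test of the vehicle effect of OE19 minus N87 called 0 of the 60 sgRNAs (0 higher and 0.00325% lower among all sgRNAs). At an unadjusted p under 0.05 it gave 3 of the 60, with 5.76% of all sgRNAs, and DESeq2 called 0. Without OE19 vehicle replicate 2 it called 1 higher, with 0.268% of all sgRNAs.

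Lapatinib against vehicle asked which knockouts gained or lost share under HER2 and EGFR inhibition. The lines gave different pictures. In OE19 lapatinib cells 1 of the 60 sgRNAs was called higher and 0 lower, with 2.33% and 0.0795% of all sgRNAs called. In N87 lapatinib cells 17 of the 60 were called higher and 25 lower, that is 28.3% and 41.7%, with 31.2% and 29.9% of all sgRNAs called. The control guides of N87 were called in large numbers too, 36.6% higher and 15.7% lower, so a call in N87 was common for any guide, with or without a target. The median log2 fold change over the 60 sgRNAs was -0.01 in OE19 and -0.48 in N87, against -0.02 and -0.07 over all sgRNAs and -0.14 and 0.25 over the control guides. With total counts as the only scaling, 11 of the 60 were called higher and 33 lower in N87, with 19.0% and 44.9% of all sgRNAs. Without N87 vehicle replicate 2 there were 14 higher and 15 lower, with 24.7% and 15.9% of all sgRNAs. In OE19, 3 were higher and 0 lower without lapatinib replicate 1, with 4.39% and 0.410% of all sgRNAs, and 4 higher and 4 lower without lapatinib replicate 2, with 8.57% and 3.72%. There were 0 in either direction without vehicle replicate 1 or 2.

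**Figure D2:**
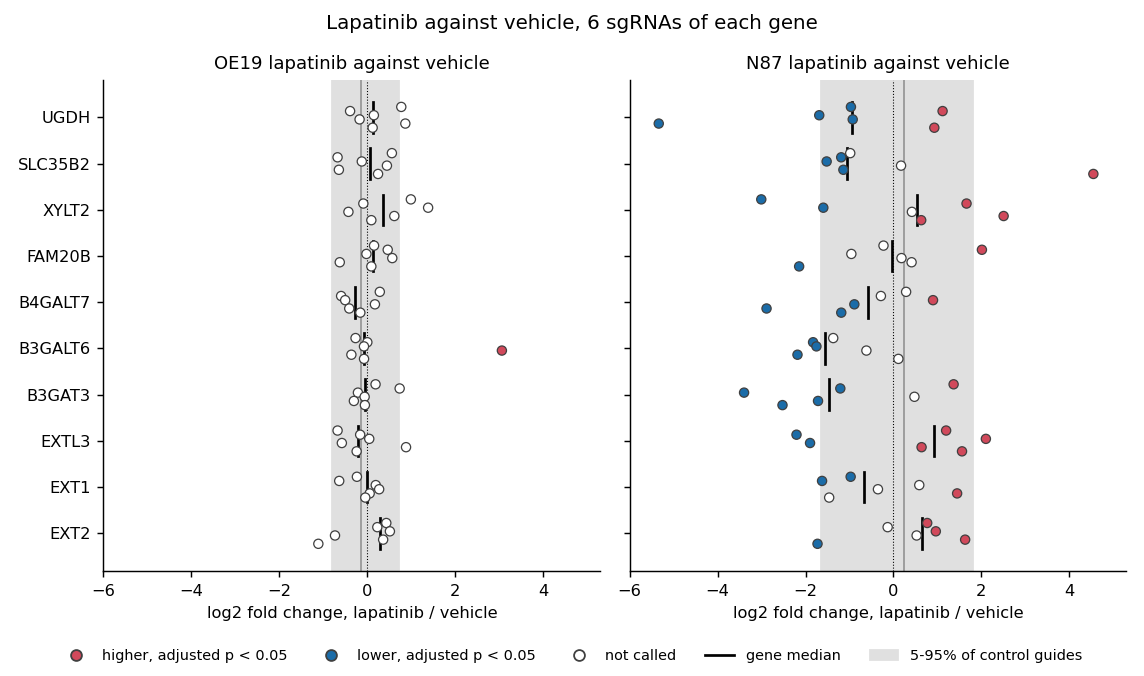
log2 fold change of lapatinib against vehicle for the 6 sgRNAs of each gene (points, offset from sgRNA 1 at the top to sgRNA 6), in OE19 (left) and N87 (right). Red and blue points were called higher and lower, open points were not called, black bars are gene medians and the grey band spans the central 90% of the control guides. In N87 every gene has points on both sides of 0, and the gene medians run from -1.56 to 0.92, against -0.28 to 0.36 in OE19.

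EXTL3 was split in N87. Its sgRNA 3 had 1914 and 1612 normalized counts in N87 lapatinib cells, against 391 and 400 in N87 vehicle cells. Its sgRNA 6 had 1577 and 1259 in lapatinib cells and 444 and 482 in vehicle cells, and sgRNA 1 had 1016 and 854 in lapatinib cells and 379 and 405 in vehicle cells. All 3 lay well above vehicle in both replicates. In contrast, sgRNA 2 had 75.5 and 75.7 in lapatinib cells against 306 and 367 in vehicle cells, and sgRNA 4 had 115 and 78.1 in lapatinib cells against 363 and 330 in vehicle cells. These lay below vehicle in both replicates. The log2 fold changes were 2.10 (SE 0.23) for sgRNA 3, 1.56 (SE 0.22) for sgRNA 6 and 1.20 (SE 0.21) for sgRNA 1, and -2.21 (SE 0.24) and -1.90 (SE 0.24) for sgRNAs 2 and 4. These 5 calls were also made under all 11 alternatives. Guides without a target moved widely in this comparison too, with a grey band of the control guides from -1.65 to 1.81. EXTL3 sgRNAs 1 and 6 lay inside that band, and sgRNAs 2, 3 and 4 lay outside it. sgRNA 5, at 188 and 198 in lapatinib cells and 110 and 129 in vehicle cells, was called higher (0.64, adjusted p = 0.0422), but under only 4 of the 11 alternatives, whose adjusted p ran from 0.0351 to 0.710.

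The median of EXTL3 in N87 was 0.92 (SD 1.84 over 6 sgRNAs), and 93.4% of all genes had a lower median. Its gene test gave an adjusted p of 0.285 toward lower and 1 toward higher, so the median and the test differ in sign: the test scores the sgRNAs ranked at the end of the list, and the median reads the middle of the 6. The gene test toward lower passed with total counts as the only scaling (adjusted p = 0.0419) and without N87 lapatinib replicate 1 (adjusted p = 0.0151), although the median stayed positive there, at 0.39 and 0.88. The sum over the 6 sgRNAs was 4885 and 4077 in N87 lapatinib cells, against 1993 and 2113 in N87 vehicle cells, a ratio of means of 2.18. In OE19 none of the 6 sgRNAs was called, the median was -0.20 (SD 0.56) and the sums were 1733 and 2148 in lapatinib cells against 2220 and 2266 in vehicle cells. EXTL3 lies on chromosome 8 from 28457986 to 28614078 (plus strand, GRCh37), as do the coordinates below in that build, and the count table does not give the position of an sgRNA within its gene.

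**Figure D3:**
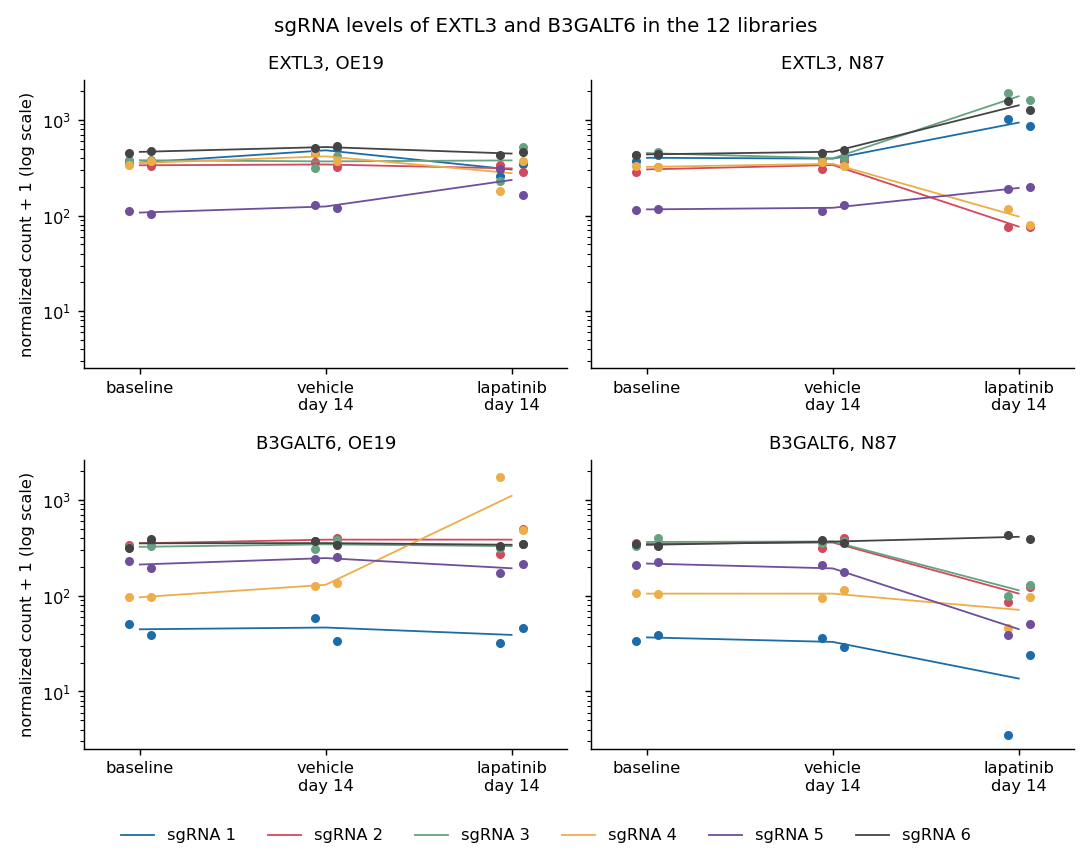
Normalized count plus 1 (log scale) of the 6 sgRNAs of EXTL3 (top) and B3GALT6 (bottom) at baseline, after vehicle and after lapatinib, in OE19 (left) and N87 (right). Points are single libraries, with replicate 1 left of replicate 2, and lines join the means of the 2 replicates. The EXTL3 sgRNAs part in N87 lapatinib cells, with sgRNA 3 at 1914 and 1612 and sgRNA 2 at 75.5 and 75.7, and B3GALT6 sgRNA 4 stands out in OE19 lapatinib cells.

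B3GALT6, which adds the second galactose of the linker, had 3 sgRNAs called lower in N87, where 29.9% of all sgRNAs were called lower. Its sgRNA 2 had 85.4 and 124 normalized counts in N87 lapatinib cells, against 318 and 400 in N87 vehicle cells. sgRNA 3 had 99.0 and 127 in lapatinib cells and 359 and 377 in vehicle cells, and sgRNA 5 had 38.3 and 49.2 in lapatinib cells and 208 and 177 in vehicle cells. The libraries of these 3 sgRNAs did not overlap, and their log2 fold changes were -1.83 (SE 0.25), -1.75 (SE 0.23) and -2.18 (SE 0.33), called under all 11 alternatives. sgRNA 6 had 433 and 392 in lapatinib cells and 378 and 356 in vehicle cells, with a log2 fold change of 0.11 (SE 0.19). No B3GALT6 sgRNA was called higher in N87, against 31.2% of all sgRNAs. Its median of -1.56 (SD 0.86) was the lowest of the 10 genes, and 2.92% of all genes lay below it. The gene test gave an adjusted p of 0.125 toward lower, where 0.0144% of all genes were called lower.

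In OE19 the same gene held the only call of the list. B3GALT6 sgRNA 4 had 1731 and 483 normalized counts in OE19 lapatinib cells, against 125 and 134 in OE19 vehicle cells. Both lapatinib libraries lay above both vehicle libraries, but replicate 1 was far above replicate 2. The log2 fold change was 3.06 (SE 0.50, edgeR adjusted p = 0.00881). It was 1.91 without lapatinib replicate 1 and 3.74 without lapatinib replicate 2, and the call was lost without vehicle replicate 1 (adjusted p = 0.280) or vehicle replicate 2 (adjusted p = 0.163), each alternative leaving 1 library in a group. The other 5 B3GALT6 sgRNAs lay between -0.36 and 0.00 in OE19. Since 1 sgRNA of 6 carried the change, the median was -0.07 and the gene test gave an adjusted p of 0.918 toward higher, where 0.0957% of all genes were called higher. B3GALT6 lies on chromosome 1 from 1167617 to 1170421, plus strand.

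The remaining linker enzymes were mixed in N87 as well. XYLT2 (chromosome 17, 48423487 to 48440499, plus strand), a xylosyltransferase that starts the chain, had 3 sgRNAs called higher and 2 lower in N87. Its sgRNA 5 had 1653 and 1168 normalized counts in N87 lapatinib cells and 248 and 229 in N87 vehicle cells (log2 fold change 2.51, SE 0.24), while its sgRNA 1 had 2.47 and 16.8 in lapatinib cells and 75.7 and 76.8 in vehicle cells (-3.01, SE 0.69). These were the ends of the range over its 6 sgRNAs, and both lay outside their vehicle libraries in each replicate. FAM20B (chromosome 1, 178994939 to 179045702, plus strand), the kinase that phosphorylates the xylose, had 1 call each way and a median of -0.02. Its sgRNA 2 had 1270 and 894 in lapatinib cells and 230 and 286 in vehicle cells. Its sgRNA 6 had 33.4 and 75.7 in lapatinib cells and 208 and 260 in vehicle cells. These 2 sgRNAs did not share a direction. Of all sgRNAs, 31.2% were called higher and 29.9% lower in this comparison.

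B4GALT7 (chromosome 5, 177027133 to 177037331, plus strand) had 1 sgRNA called higher and 3 lower in N87, with a median of -0.59 (SD 1.32). B3GAT3 (chromosome 11, 62382768 to 62389626, minus strand), which closes the linker with glucuronic acid, came next to B3GALT6 with a median of -1.46 (SD 1.80). Of its sgRNAs, 4 were called lower and sgRNA 1 higher, at 515 and 435 in N87 lapatinib cells against 161 and 194 in N87 vehicle cells. Over all sgRNAs 31.2% were called higher and 29.9% lower in N87 lapatinib against vehicle. In OE19 none of the sgRNAs of XYLT2, FAM20B, B4GALT7 and B3GAT3 was called, and their medians lay between -0.28 (B4GALT7) and 0.36 (XYLT2). The closest to a call was XYLT2 sgRNA 3, at 349 and 168 in OE19 lapatinib cells and 99.5 and 91.9 in OE19 vehicle cells (log2 fold change 1.39, SE 0.34, adjusted p = 0.0590).

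The medians of the chain polymerase subunits had opposite signs in N87, while the sums of both genes were higher under lapatinib. EXT2 (chromosome 11, 44117198 to 44273512, plus strand) had a median of 0.65 (SD 1.16), with 3 sgRNAs called higher and 1 lower. EXT1 (chromosome 8, 118806729 to 119124065, minus strand) had a median of -0.66 (SD 1.21), with 1 called higher and 2 lower. Over all sgRNAs 31.2% were called higher and 29.9% lower. The EXT2 sums were 2564 and 2156 in N87 lapatinib cells, against 1343 and 1442 in N87 vehicle cells. The EXT1 sums were 1008 and 961 in lapatinib cells and 761 and 843 in vehicle cells. EXT1 sgRNA 5 made up 67.3% of the EXT1 sum in N87 lapatinib cells. The difference between the 2 genes was not tested, and each SD over sgRNAs was larger than the distance of the median from 0. In OE19 the medians were 0.30 for EXT2 and 0.01 for EXT1, with no sgRNA called.

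The precursor genes held the most extreme sgRNAs of the list. SLC35B2 (chromosome 6, 44221833 to 44225627, minus strand) sgRNA 6 had 5269 and 3390 normalized counts in N87 lapatinib cells, against 209 and 147 in N87 vehicle cells and 161 and 149 in N87 baseline cells. That was a log2 fold change of 4.55 (SE 0.33), and it stayed between 4.01 and 4.81 under the 11 alternatives. This sgRNA made up 88.5% of the gene's sum in N87 lapatinib cells. The other 5 sgRNAs of SLC35B2 ran the other way or near 0, with 3 called lower and a gene median of -1.06 (SD 2.31). Over all sgRNAs 29.9% were called lower in N87 lapatinib against vehicle and 31.2% higher. In OE19 sgRNA 6 had 191 and 177 in lapatinib cells and 152 and 154 in vehicle cells and was not called.

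UGDH (chromosome 4, 39500375 to 39529931, minus strand) had 2 sgRNAs called higher and 4 lower in N87, where 31.2% and 29.9% of all sgRNAs were called. Its sgRNA 5 had 2 and 0 counts in N87 lapatinib cells, against 46 and 83 counts in N87 vehicle cells. The ratio of the scaled counts was 0.0236, with a 95% exact interval of 0.00282 to 0.0868 that covers counting error only. The fitted log2 fold change of -5.34 (SE 1.01) was -8.87 without lapatinib replicate 1 and -4.41 without lapatinib replicate 2, so its size rests on very few counts. UGDH sgRNA 2 went up in the same cells, at 518 and 611 normalized counts in lapatinib cells and 217 and 285 in vehicle cells. In OE19 the sgRNA 5 libraries overlapped, at 67.2 and 21.7 in lapatinib cells and 16.2 and 30.6 in vehicle cells.

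The replicates separated the lines further. The log2 change of lapatinib over vehicle in replicate 1 and in replicate 2 correlated across the 60 sgRNAs with r = 0.313 in OE19 and r = 0.874 in N87, against 0.589 and 0.892 across the control guides and 0.500 and 0.871 across all sgRNAs. The OE19 value includes B3GALT6 sgRNA 4, at 3.79 and 1.84, the only 1 of the 60 with a log2 change over 1 in both replicates. The correlation without it was not computed. Of the 60 sgRNAs, 33 had the same sign in both replicates in OE19 and 55 in N87. Over all 123411 sgRNAs, 77763 had the same sign in OE19 and 110199 in N87, so the difference between the lines ran through the library. These values are across sgRNAs of shared libraries, which are not independent replicates. In N87 the direction of an sgRNA repeated between replicates for most of the 60 sgRNAs and for most guides without a target. Each of the 10 genes, however, had sgRNAs of both signs. For B3GALT6 the only positive sgRNA was sgRNA 6, at 0.11 (SE 0.19), which was not called. The SD over the sgRNAs of a gene had a median of 1.60 among the 10 genes in N87 and 1.29 among all genes, and in OE19 0.52 and 0.50.

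**Figure D4:**
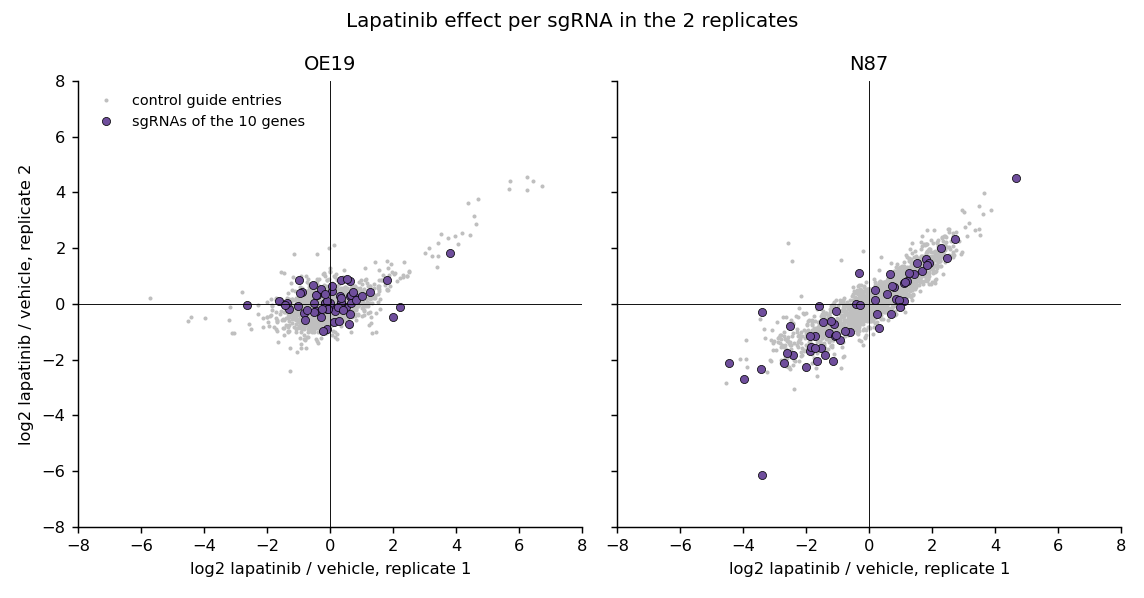
log2 of lapatinib over vehicle (normalized count plus 1) in replicate 1 (x) and replicate 2 (y), in OE19 (left) and N87 (right), for the 60 sgRNAs of the 10 genes (purple) over the 2000 control guide entries (grey). In N87 the purple points follow the diagonal of the control guides (r = 0.874), and in OE19 most lie in the central cloud (r = 0.313), with B3GALT6 sgRNA 4 the farthest at the upper right.

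The N87 changes were also set against the share of an sgRNA before treatment and its sublibrary. Across the 60 sgRNAs the N87 baseline level and the log2 fold change of lapatinib against vehicle had a Spearman correlation of 0.315, against 0.148 across control guides and 0.217 across all sgRNAs. Among the 30 sgRNAs above the median baseline level of the 60 (170 normalized counts), 12 were called higher and 11 lower. Among the 30 below it, 5 were called higher and 14 lower. All sgRNAs shifted the same way at this cut. Above it 19247 were called higher and 12931 lower of 50616, and below it 18807 higher and 23465 lower of 71286. The median log2 fold change was -0.96 for the 30 sgRNAs of sublibrary A and -0.12 for the 30 of sublibrary B, against -0.08 and -0.06 over all sgRNAs. The calls were nearly equal, with 9 higher and 13 lower in A and 8 higher and 12 lower in B. Of all sgRNAs, 30.9% were called higher and 30.1% lower in A, and 31.5% and 29.5% in B. The part of baseline level and sublibrary in the gene medians was not tested.

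Lapatinib against baseline shares its lapatinib libraries with the comparison above. In OE19 none of the 60 sgRNAs was called by edgeR (0.000817% higher and 0 lower among all sgRNAs), and 13 had an unadjusted p under 0.05 (21.7%, against 19.9% of all sgRNAs). DESeq2 called 5 of the 60 higher, with 5.92% of all sgRNAs. Without OE19 lapatinib replicate 1 edgeR called 11 higher and 2 lower, with 12% and 6.98% of all sgRNAs. Without lapatinib replicate 2 it called 20 higher and 10 lower, with 19.8% and 15.9% of all sgRNAs. In N87, 19 were called higher and 24 lower, with 33.7% and 33.6% of all sgRNAs called, and 15 in each direction without N87 baseline replicate 2, with 25.2% and 16.5% of all sgRNAs. B3GALT6 was lower by the gene test in N87, with a median of -1.63 (SD 0.94) and an adjusted p of 0.0113, where 0.134% of all genes were called lower. The call was lost with total counts as the only scaling (adjusted p = 0.0550) and without N87 baseline replicate 1 (0.0750), N87 baseline replicate 2 (0.162) or N87 lapatinib replicate 2 (0.420). EXTL3, with a median of 0.93 there, had an adjusted p of 0.194 toward lower. No other gene test of the 10 genes passed in any of the 8 comparisons, by edgeR or by DESeq2, where 0.124% of all genes were called higher and 0.129% lower in OE19 lapatinib against baseline, and 0.0383% and 0.191% for the vehicle effect of OE19 minus N87. For the 10 genes, at an unadjusted p under 0.05 edgeR gave 9 of 80 tests toward higher and 10 of 80 toward lower over these 8 comparisons (11.3% and 12.5%, against 5.19% and 5.76% over all genes). The comparisons share libraries, and the genes were selected on readouts of this screen.

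The lapatinib effect was set against itself between the lines as an interaction, OE19 minus N87, which includes the difference in dose. Of the 60 sgRNAs, 20 were higher and 13 lower in OE19 than in N87, that is 33.3% and 21.7%, with 20.7% and 20.5% of all sgRNAs called (41.2% in either direction). For B3GALT6, 4 sgRNAs were called and all were higher in OE19 than in N87, with a median difference of 1.78, and the gene test gave an adjusted p of 0.327 toward higher, where 0.0191% of all genes were called higher. For EXTL3, 2 were higher and 3 lower. Across the 60 sgRNAs the lapatinib effects of OE19 and N87 correlated with r = 0.0358, and across all sgRNAs with r = 0.0200, although the baseline levels of the lines correlated with r = 0.981 across the same 60 sgRNAs. The vehicle effects of the lines correlated with r = 0.0252 across the 60 sgRNAs and r = 0.381 across all sgRNAs. Across the control guides r was 0.00506 for the vehicle effects and -0.00143 for the lapatinib effects, so values near 0 were also seen without a target.

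Likeness of profile was measured for EXTL3 and B3GALT6 as the root-mean-square difference, over the 8 vehicle and lapatinib libraries, of the gene's median log2 change from baseline. Among 17865 genes the closest to EXTL3 were GYS1 (0.0609), GPX3, NKIRAS1, BAAT and TMEM33 (0.0878), where the median over genes was 0.564. The closest to B3GALT6 were C2orf57 (0.0862), CAPRIN2, PPP3R1, hsa-let-7a-1 and TRIM35 (0.106), with a median of 0.808. Of the other pathway members, XYLT2 (0.331) was the nearest to EXTL3, and B3GAT3 (0.265), the next linker enzyme, the nearest to B3GALT6. EXTL3 and B3GALT6 were the farthest of the 10 genes from each other's profile, at 1.27. In the N87 lapatinib libraries of replicates 1 and 2 the median log2 change from baseline was 1.03 and 0.94 for EXTL3 and -1.94 and -1.06 for B3GALT6. Across the other 6 libraries the medians lay between -0.29 and 0.20 for EXTL3 and between -0.18 and 0.21 for B3GALT6. Shared function is not implied by a close profile.

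The rest of the pathway was read from 6 lists of 70 genes: 6 other linker and precursor genes, 18 genes of heparan sulfate chain modification, 5 of the sulfate donor, 16 of chondroitin sulfate, 14 proteoglycan core proteins and 11 of heparan sulfate breakdown. None of the 70 passed the gene test in any of the 8 comparisons, by edgeR or by DESeq2. At an unadjusted p under 0.05 edgeR gave 21 toward higher and 18 toward lower of 560 tests over the 8 comparisons (3.75% and 3.21%, below the share over all genes), and DESeq2 17 and 19. In N87 lapatinib against vehicle, 32.5% of the 416 sgRNAs of these genes were called higher and 26.4% lower, near the 31.2% and 29.9% of all sgRNAs. Proteoglycan core proteins had 39.8% called higher and 22.9% lower, and of the 36 sgRNAs of other linker and precursor genes 9 were called higher and 17 lower. In OE19 6 of the 416 were called higher and 0 lower, that is 1.44% higher, against 2.33% higher and 0.0795% lower among all sgRNAs.

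IDUA and UXS1 are named from these lists after their values were seen. IDUA, the lysosomal enzyme that removes iduronic acid from heparan sulfate, had all 6 sgRNAs called higher in N87 lapatinib cells. Its median was 2.29 (SD 1.73) and its gene test adjusted p was 0.346. Its list, heparan sulfate breakdown, had 20 of 66 sgRNAs called higher and 13 lower there, the 6 of IDUA included. That was 30.3% and 19.7%, against 31.2% and 29.9% of all sgRNAs. Its sgRNA 1 had 8646 and 5674 normalized counts in N87 lapatinib cells, against 169 and 147 in N87 vehicle cells. Its sgRNA 2, the least changed, had 412 and 350 in lapatinib cells and 231 and 221 in vehicle cells. In OE19 its median was 0.14 and none of its sgRNAs was called.

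UXS1 turns the UDP-glucuronic acid made by UGDH into UDP-xylose, the substrate of XYLT2. In drug-free OE19 cells its sums were 521 and 780 normalized counts in OE19 vehicle cells against 974 and 1019 in OE19 baseline cells. The libraries did not overlap, and the ratio of means was 0.653. The largest fold change was that of sgRNA 5, with 12.5 and 12.5 in vehicle cells against 87.9 and 87.1 in baseline cells (log2 fold change -2.80, SE 0.35, adjusted p = 0.00971), the only sgRNA of the 70 genes called in this comparison. In normalized counts sgRNA 2 lost more, at 140 and 199 in vehicle cells against 281 and 348 in baseline cells (-0.92, SE 0.20), but it was not called (adjusted p = 0.0645). The median over the 6 sgRNAs was -0.50 (SD 1.03) and the gene test adjusted p was 0.0739, which misses the threshold but was the lowest of the 70 genes. In N87 the sums were 877 and 843 in vehicle cells and 912 and 874 in baseline cells, and sgRNA 5 had 77.2 and 65.9 in vehicle cells against 64.3 and 56.5 in baseline cells. The vehicle effect of OE19 minus N87 had a median of -0.41 for UXS1 with a gene test adjusted p of 0.132, and a median of 0.25 for UGDH.

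**Figure D5:**
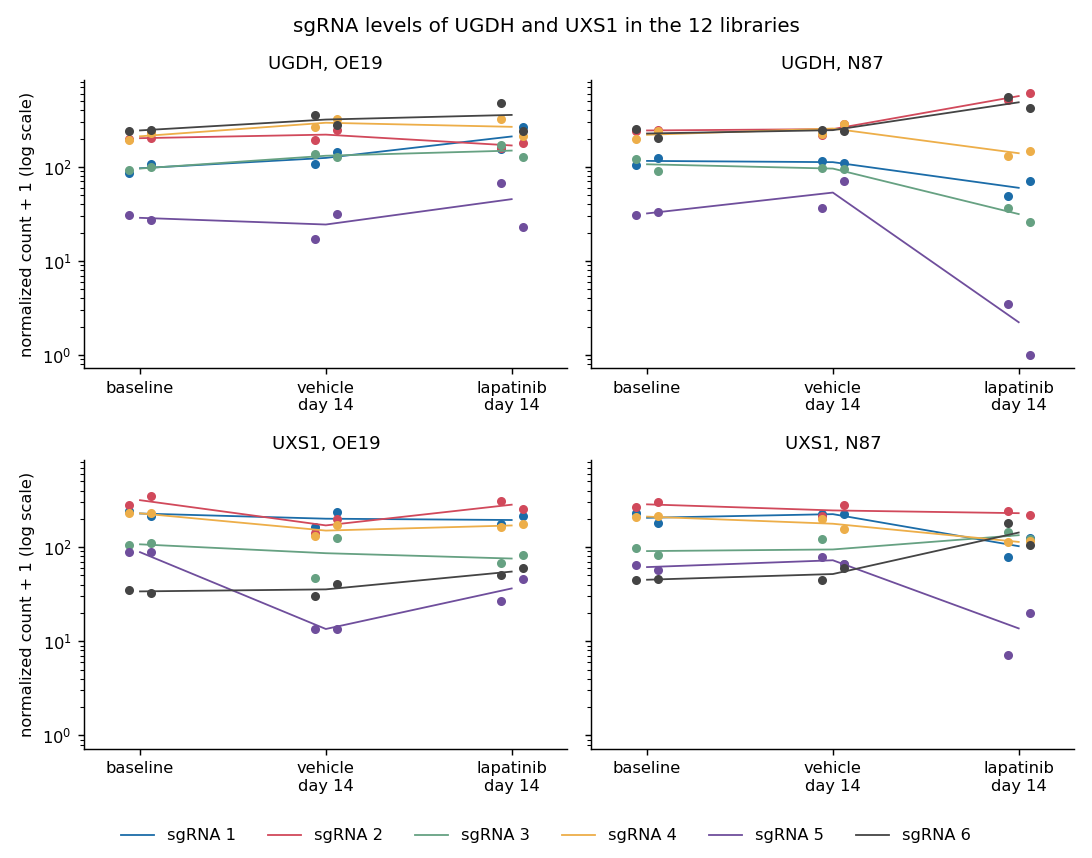
Normalized count plus 1 (log scale) of the 6 sgRNAs of UGDH (top) and UXS1 (bottom) at baseline, after vehicle and after lapatinib, in OE19 (left) and N87 (right). Points are single libraries, with replicate 1 left of replicate 2, and lines join the means. UXS1 sgRNA 5 drops to 12.5 in both OE19 vehicle libraries, and UGDH sgRNA 5 nearly disappears in N87 lapatinib cells, with 2 and 0 counts.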

How the data were processed

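The values are whole-number counts of reads per sgRNA, not normalized, which the authors deposited for 12 libraries. Upstream, the authors trimmed reads and judged their quality by FastQC (0.11.5), aligned them to the library sequences with fewer than 2 mismatches with Bowtie2 (2.3.2 in the submitters' processing notes) and counted them, and their gene scores came from MAGeCK (0.5.6) and edgeR. The genome build and the sgRNA sequences were not given in the sources used here. Gene positions were taken from GENCODE on GRCh37. Other experiments of the study were not analysed here.

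Counts were tested in R 4.3.3 with edgeR 4.0.16 (quasi-likelihood F test with TMM scaling and without a block for replicate numbers), limma 3.58.1 and DESeq2 1.42.0, on the 4 libraries of a comparison (8 for the interactions of line and treatment) and sgRNAs with at least 40 counts (80 for the interactions). Summaries were made in Python 3.11.15 (pandas 2.3.3, numpy 2.4.6, scipy 1.17.1) and plots in matplotlib 3.10.9. Genes with at least 2 sgRNAs were scored by robust rank aggregation of one-sided p-values over ranks below 0.05. All p-values were Benjamini-Hochberg adjusted over all sgRNAs or all genes, with a threshold of 0.05. Gene values are medians over sgRNAs. Ratios of normalized counts used a pseudocount of 1 for log2 values. The steps were tested on simulated data modelled on N87 vehicle against baseline, with the same fold change for every sgRNA of a changed gene. The lapatinib comparisons were not simulated. Reads without molecular identifiers are not independent molecules, so counting intervals cover counting error only.

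The 10 genes, the pathway lists and the tests were chosen with earlier results of these data known. The text names all 10 genes, pathway genes that pass the gene test in any comparison or have at least 50% of their sgRNAs called in 1 direction in an OE19 comparison or in N87 vehicle against baseline (none did; the N87 lapatinib comparisons are not part of the sgRNA condition), and the 5 genes with the profile closest to EXTL3 and to B3GALT6. Genes had to have at least 4 sgRNAs with a baseline mean of at least 20 normalized counts for the profiles. IDUA, whose sgRNAs were called in the N87 lapatinib comparisons, and UXS1 lie outside that rule. Alternatives were other scaling factors (median of ratios, total counts, TMM of control guides), no filter or at least 200 counts (400 for the interactions), DESeq2, a replicate block, leaving out each library, pseudocounts of 0.5 and 5, and, chosen after seeing the data, each sublibrary alone.

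The 2 libraries of each condition were not copies of each other: their counts differed beyond sampling noise, the chi-square divided by its degrees of freedom being 1.88 at the lowest and 17.6 at the highest.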

Additional observations from a re-analysis of the deposited data

Results flagged for a closer look

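The effect of lapatinib differed between OE19 and N87, by the interaction of line and treatment in edgeR, for at least 1 sgRNA of each of the 10 genes, where 41.2% of all sgRNAs were called in this comparison. The doses differ between the lines, so line and dose cannot be told apart. B3GAT3 had 5 such sgRNAs, 4 higher in OE19 than in N87 and 1 lower. EXTL3 had 5, with 2 higher and 3 lower. B3GALT6 had 4, all higher in OE19, and UGDH and B4GALT7 had 4 each, with 3 higher and 1 lower. XYLT2 had 4, with 2 in each direction. FAM20B and EXT1 had 2 each, 1 in each direction, EXT2 had 2, both lower in OE19, and SLC35B2 had 1, which was lower.

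The differences over 3 log2 units were those of 6 sgRNAs, given as OE19 minus N87 with edgeR's adjusted p. UGDH sgRNA 5 differed by 6.22 (0.00218), with only 2 counts in the N87 lapatinib libraries. XYLT2 sgRNA 1 differed by 4.02 (0.00423) and XYLT2 sgRNA 3 by 3.01 (0.000632). B3GALT6 sgRNA 4 differed by 3.71 (0.000793), and it was the sgRNA that was higher in OE19 lapatinib cells. B3GAT3 sgRNA 3 differed by 3.21 (0.00237). SLC35B2 sgRNA 6 ran the other way, at -4.27 (3.13e-05).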

How the results depend on the processing

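The counts of called sgRNAs of the 10 genes depended most on which OE19 library was used. The shares of all sgRNAs called moved in the same OE19 fits, as given above, so this dependence was not particular to the 10 genes. Leaving out each library in turn, the numbers called higher and lower ranged from 0 to 4 and 0 to 4 in OE19 lapatinib against vehicle, from 0 to 20 and 0 to 10 in OE19 lapatinib against baseline, and from 0 to 13 and 0 to 3 in OE19 vehicle against baseline. In N87 they ranged from 14 to 21 and 15 to 30 against vehicle, from 15 to 23 and 15 to 30 against baseline, and from 0 to 2 and 0 to 0 for vehicle against baseline. For the interactions they ranged from 15 to 21 and 9 to 14 (lapatinib) and from 0 to 1 and 0 to 0 (vehicle). A group left with 1 library is assumed to vary like the others. DESeq2 gave 5 higher in OE19 lapatinib against baseline, with 5.92% of all sgRNAs called higher. In OE19 lapatinib against vehicle it gave 2 higher, with 3.03%, and TMM factors of the control guides also gave 2, with 3.37%. In N87 lapatinib against vehicle, total counts only gave 11 higher. There the share of all sgRNAs called was 19.0% higher and 44.9% lower with total counts, and 24.5% and 37.7% with control-guide factors, and the median log2 fold change of all sgRNAs was -0.59 and -0.34, against -0.07 in the fit reported. Each sgRNA of the 10 genes called in a comparison (42 and 43 in the N87 lapatinib comparisons, 1 in OE19 and 33 in the lapatinib interaction) kept its sign under every alternative fit that held it.

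The replicate numbers do not pair the libraries by the labels, and the deviations of libraries with the same number correlated with r between 0.0340 and 0.238. With a replicate block, 4 sgRNAs were higher in OE19 lapatinib against baseline, 2 in OE19 lapatinib against vehicle and 1 in OE19 vehicle against baseline, and B3GALT6 kept its call in N87 lapatinib against baseline (adjusted p = 0.0444).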
